A study of Mus musculus with 6 samples.

Results

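The imprinted growth genes described here are *H19*, *Igf2*, *Igf2r*, *Dlk1*, *Meg3*, *Rian*, *Cdkn1c*, *Peg3*, *Grb10* and *Plagl1*, taken by gene symbol from a table of 24532 mouse genes. All 10 had a row, and all 10 passed edgeR's filter on low counts, as did 13801 genes in total. The gastrocnemius (GAS), a mixed and mainly fast calf muscle, was taken from males labelled C57BL/6 at 20 weeks of age, and its polyadenylated RNA was sequenced as 1 library per animal. The WT group was Sirt6 flox/flox without Cre (n = 3). The *Sirt6* KO group carried the same floxed alleles together with Myl1-Cre (n = 3), which the study describes as active mainly in type II, postmitotic fibers, so that other cells of the muscle would keep *Sirt6*. Sirt6 is an NAD-dependent deacylase of histones and other proteins, and the comparison asks which transcripts differ when its gene is targeted in muscle fibers.

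An imprinted gene is transcribed from the maternal or from the paternal chromosome alone, according to DNA methylation that was set in the germ line on a nearby control region. Imprinted genes lie in clusters in which one control region governs several genes, often with a long noncoding RNA among them. Many act on growth. In muscle, *Igf2* supports myoblast differentiation, *H19* is one of the abundant noncoding RNAs of adult fibers, and the genes of the *Dlk1*-*Dio3* cluster are studied in muscle overgrowth and in satellite cells, the stem cells of muscle. Counts per gene do not separate the parental alleles, so the allele given for each gene below is background.

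For comparisons between libraries, levels are in normalized CPM (counts scaled to a common library size by TMM). Levels of different genes are compared in FPKM, which also divides by transcript length. Library totals lay between 44845763 and 63016899 counts, and 1 count was worth between 0.0165 and 0.0212 CPM. Fold changes are log2 values of *Sirt6* KO over WT with their standard errors (SE), and p-values are from edgeR's quasi-likelihood test, adjusted over all 13801 genes by the Benjamini-Hochberg method. Of these genes, 7.85% were called higher and 8.39% lower at an adjusted p under 0.05. The targeted transcript was not lower in the KO group. *Sirt6* measured 2.77, 2.23 and 2.88 CPM in WT but 7.81, 7.44 and 6.68 CPM in the libraries labelled *Sirt6* KO, higher by 1.48 on the log2 scale (SE 0.17, adjusted p = 0.0113), so that "KO" below names a label, and every direction is relative to that label. A count over the whole gene does not show the deleted part, and whether these reads came from outside it or the labels were exchanged was not tested. All 8 skeletal muscle fiber markers were expressed, with a summed level between 144116 and 232291 CPM. In bulk tissue, more cells of a type and more RNA per cell cannot be told apart.

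Of the 10 genes, 4 were higher in the KO libraries at an adjusted p under 0.05, namely *Meg3*, *Rian*, *Peg3* and *Igf2r*, beside 7.85% of all genes tested. None was lower, beside 8.39% of all genes. By the rule in the study's legend, which asks for more than 2-fold and an unadjusted p below 0.05, *Dlk1*, *Meg3* and *Rian* were higher (3 of 10, against 3.14% of all genes) and none was lower (4.69% of all genes). Every KO library lay above every WT library for 5 of the 10 genes (20.3% of all genes tested), and in none did every KO library lie below every WT library in CPM (19.6% of all genes). The median log2 fold change of the 10 was 0.38, and that of all genes tested was -0.02.

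**Figure D1:**
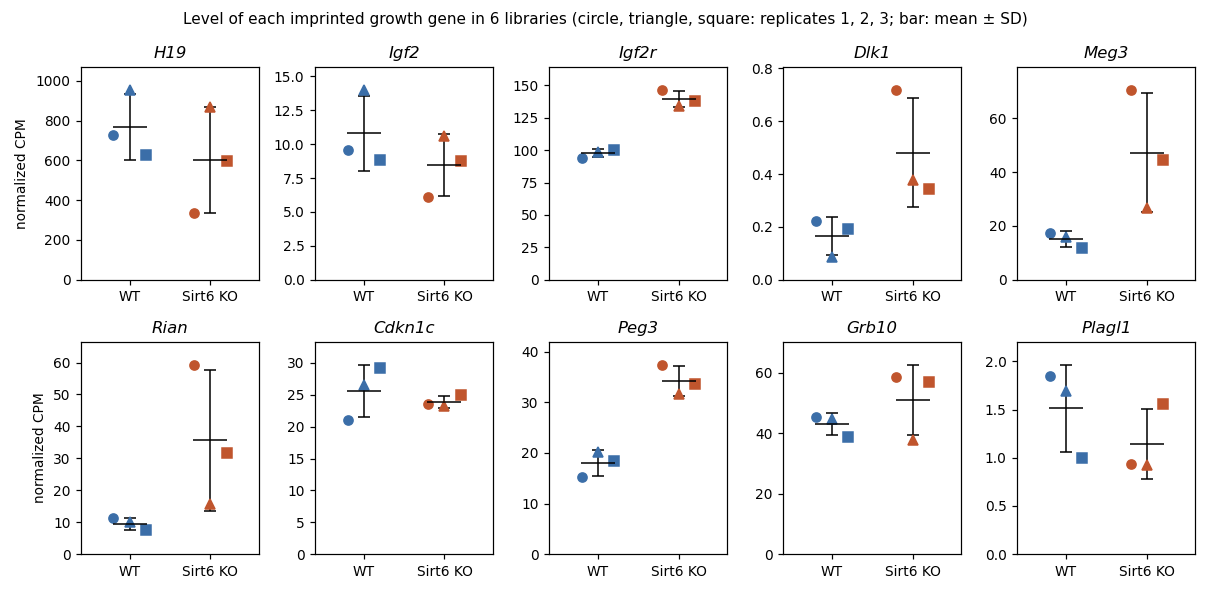
Normalized CPM (linear axes from 0) of the 10 imprinted growth genes in 3 WT and 3 *Sirt6* KO libraries; each symbol is a library and the bar is the mean ± SD. The KO libraries lie above all WT libraries for *Igf2r*, *Dlk1*, *Meg3*, *Rian* and *Peg3*, and the groups overlap for the other 5 genes.

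Before the values, the upstream sequences of *Meg3* and *Peg3* are shown because of the 8 genes with a promoter window only these held a full cAMP response element (CRE, TGACGTCA on either strand), the site of the CREB factor that the study follows. Sequences are those of NCBI RefSeq on GRCm38.p6, 5′ to 3′ on the strand of the gene, and cover the 250 bases before the start. Capitals mark the CRE, and in *Peg3* also the palindrome GGGGCCCC, which is the core of the site described for the zinc finger protein PLAGL1. The *Meg3* sequence is chr12:109540746-109540995 (plus strand) and its CRE begins 57 bases before the start. The *Peg3* sequence is chr7:6730420-6730669 (minus strand) and its CRE begins 178 bases before the start used for its promoter window. That start lies inside the span of the gene, which begins on this strand at 6730462, so the last bases shown belong to the gene.
Meg3: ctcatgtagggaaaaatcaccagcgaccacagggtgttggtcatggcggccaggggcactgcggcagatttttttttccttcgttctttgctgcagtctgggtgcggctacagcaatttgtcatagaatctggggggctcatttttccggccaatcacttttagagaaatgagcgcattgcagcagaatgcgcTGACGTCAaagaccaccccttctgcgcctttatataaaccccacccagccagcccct
Peg3: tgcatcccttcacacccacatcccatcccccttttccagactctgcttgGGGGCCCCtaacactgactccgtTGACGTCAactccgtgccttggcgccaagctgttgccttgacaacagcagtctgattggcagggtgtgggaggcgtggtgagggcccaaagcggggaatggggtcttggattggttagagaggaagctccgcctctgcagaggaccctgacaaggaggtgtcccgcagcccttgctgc
Among the 32851 mouse promoter windows of this table (250 bases before to 50 after a start), 1.79% held the full CRE and 1.08% held GGGGCCCC. The table had 13 windows for 8 of the 10 genes. The shorter core TGACG, which each full CRE also contains, was in 7 of the 13 windows and in 20.8% of all windows. *Igf2r* had 3 such cores and no full CRE, while the *Rian* window held neither and had no CpG at all. The E-box CANNTG, which MyoD-type factors bind, was in 7 of the 13 windows and in 72.3% of all windows. The ratio of observed to expected CpG exceeded the median of all windows (0.384) in 9 of the 13. Binding and methylation were not measured in these libraries.

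The *Dlk1*-*Dio3* cluster on chromosome 12 held the 3 widest differences of the 10 genes. Its noncoding RNAs *Meg3* and *Rian* are transcribed from the maternal chromosome in the same direction, *Meg3* from 109540996 to 109571729 and *Rian* from 109603945 to 109661716, with 32.2 kb between them. The protein-coding gene *Dlk1* lies 77.7 kb upstream of *Meg3* and is transcribed from the paternal chromosome. All 3 were highest in KO library 1.

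*Meg3*, a noncoding RNA with growth-suppressing activity, was at 17.4, 16.0 and 11.9 CPM in WT and at 70.5, 26.5 and 44.7 CPM in KO. The groups did not overlap, although the KO libraries were spread more widely (47.2 ± 22.1, SD, n = 3) than the WT libraries (15.1 ± 2.88). The log2 fold change was 1.65 (SE 0.34, adjusted p = 0.0234). *Rian*, a host transcript of small nucleolar RNAs and microRNAs, was at 11.2, 9.93 and 7.42 CPM in WT and at 59.3, 15.8 and 31.8 CPM in KO. Again KO 1 was highest, KO 2 lowest of its group, and no KO library reached down to WT. The log2 fold change was 1.91 (SE 0.44, adjusted p = 0.0315), the widest of the 10 genes.

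*Dlk1*, a transmembrane and secreted protein of the Notch ligand family that restrains adipocyte differentiation, was near the limit of detection. It had 11, 4 and 11 counts in the WT libraries and 42, 23 and 19 counts in the KO libraries, or 0.0848 to 0.221 CPM against 0.345 to 0.718 CPM. The groups did not overlap, but the log2 fold change of 1.51 (SE 0.53) missed the threshold (adjusted p = 0.0910), with a 95% interval from 0.27 to 2.76.

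*Meg3* and *Rian* varied together from library to library. While *Meg3* ranged from 11.9 to 70.5 CPM and *Rian* from 7.42 to 59.3 CPM, their ratio in FPKM stayed between 1.44 and 2.08. Among all genes tested, the gene whose centred log2 CPM profile over the 6 libraries was closest to that of *Rian* was *Meg3* (root mean square difference 0.159), followed by *B230312C02Rik* (0.264) and *Csf2rb2* (0.289). For *Meg3* the closest were *Rian* (0.159), *Exoc3l4* (0.200) and *Rgma* (0.206). *Rgma*, a membrane-anchored coreceptor of bone morphogenetic proteins, was at 8.84 ± 1.93 CPM (SD, n = 3) in WT and 28.1 ± 7.54 CPM in KO. The measure is a description over 6 libraries that also share the group difference.

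The remaining genes of the cluster were read from a list of imprinted genes. *Mirg*, a microRNA host further along the same maternal stretch, had 20, 16 and 26 counts in WT and 81, 39 and 36 in KO, a log2 fold change of 1.16 (SE 0.42, adjusted p = 0.0995). *Begain*, a neuronal scaffold gene upstream of *Dlk1*, had 8, 8 and 0 counts in WT and 12, 24 and 11 in KO, with an adjusted p of 0.332. In both the groups were separate without passing the test, and *Mirg* was highest in KO 1 as *Meg3* and *Rian* were. *Dio3*, which encodes the deiodinase that inactivates thyroid hormone, overlapped between the groups (-0.13, SE 0.56, adjusted p = 0.891). *Rtl1*, the retrotransposon-derived gene studied in muscle overgrowth, was not tested, with 3 counts in KO 1 and none in the other libraries. Of the 6 tested genes of the cluster, 2 were called higher (7.85% of all genes tested) and 5 had every KO library above every WT library (20.3% of all genes), and their median log2 fold change was 1.41.

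**Figure D2:**
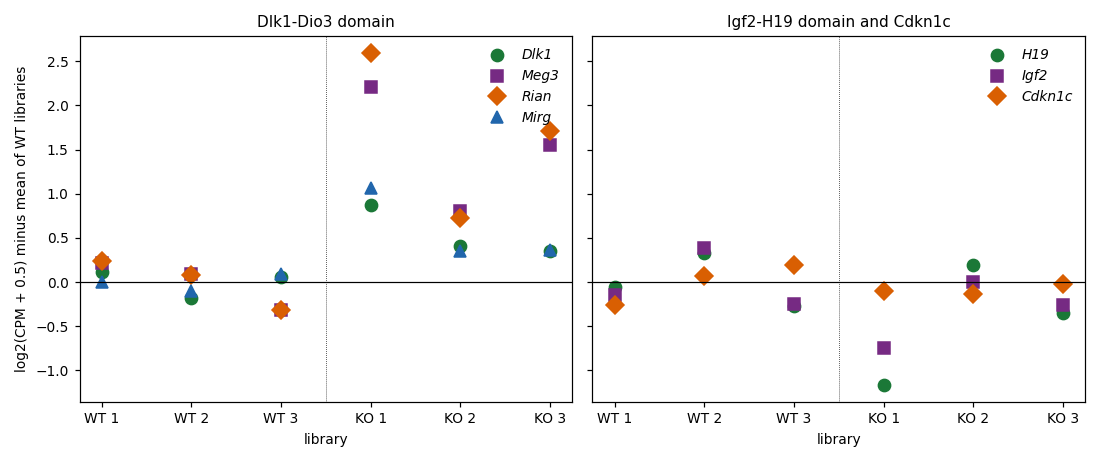
Log2(CPM + 0.5) in each of the 6 libraries (horizontal axis) minus the mean of the 3 WT libraries, for 4 genes of the *Dlk1*-*Dio3* cluster (left) and for *H19*, *Igf2* and *Cdkn1c* (right). *Meg3* and *Rian* move together and peak in KO 1 at 2.20 and 2.60, while *H19* and *Igf2* move together and are lowest in KO 1 at -1.17 and -0.75.

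The microRNAs lying within *Meg3* and *Rian* were not measured by this poly(A) library. Mature sequences (RefSeq) are shown for a microRNA of *Meg3* and for 2 of *Rian*, the genes with the widest changes, and for miR-675 of *H19*, with the seed (bases 2 to 8) in capitals. The 4 seeds differ from each other.
mmu-miR-770-3p (in Meg3): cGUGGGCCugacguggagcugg
mmu-miR-341-3p (in Rian): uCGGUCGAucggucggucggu
mmu-miR-370-3p (in Rian): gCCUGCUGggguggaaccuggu
mmu-miR-675-5p (in H19): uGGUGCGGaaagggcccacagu
Among RefSeq entries, 6 mature microRNAs lay within *Rian*, 3 within *Meg3*, and 2 each within *H19* and *Igf2*. The level of a host transcript gives no level for them.

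Satellite cells are a known place of *Dlk1*-*Dio3* expression, and their markers moved unevenly. Of 8 such markers, *Pax7* (log2 fold change 1.28), *Myf5* (1.33), *Cdh15* (0.97) and *Itga7* (0.83) were called higher and *Sdc4* lower (-1.41). Among all genes tested, 7.85% were called higher and 8.39% lower. *Fgfr4* (0.70), *Chodl* (-0.49) and *Vcam1* (-0.26) were not called. Every KO library lay above every WT library for 5 of the 8 markers (20.3% of all genes tested). Every KO library lay below every WT library for 3 of them, *Sdc4*, *Chodl* and *Vcam1* (19.6% of all genes tested). All 8 markers were detected and tested, and they are named here after their values were seen. The summed level of the 8 overlapped between the groups, at 188 to 273 CPM in WT and 214 to 259 CPM in KO. Most of that sum was *Sdc4* (mean 124 CPM in WT, 46.5 CPM in KO) and *Itga7* (77.1 and 138 CPM), which moved in opposite directions. *Pax7* added little (0.48 and 1.18 CPM), so the overlap of the sum does not show whether satellite cells differed. Of 8 markers of regeneration and denervation, *Chrna1* was called higher and *Myog* lower. Of 6 adipocyte markers none was called, and their summed level was 4.76 to 54.6 CPM in WT and 15.5 to 123 CPM in KO. The part of these cells in the *Meg3*, *Rian* and *Dlk1* values was not tested.

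*Peg3* and *Igf2r* changed less widely and with little spread. *Peg3*, a paternally expressed zinc finger gene on chromosome 7 (6703892 to 6730462) that is studied in growth, maternal care and muscle stem cells, was at 15.2, 20.3 and 18.5 CPM in WT and at 37.4, 31.6 and 33.5 CPM in KO. The lowest KO library stood well above the highest WT library. The log2 fold change was 0.93 (SE 0.14, adjusted p = 0.0132), the smallest adjusted p of the 10 genes. *Usp29*, a paternally expressed neighbour that is transcribed the other way from the same promoter region, had 2, 4 and 0 counts in WT and 14, 12 and 25 in KO. Its groups were separate, but *Usp29* missed the threshold (2.83, SE 0.87, adjusted p = 0.0647). *Zim1*, the maternally expressed zinc finger gene next to them, overlapped between the groups, with a log2 fold change of -0.07 (SE 0.26).

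*Igf2r*, the maternally expressed receptor that carries IGF2 and mannose 6-phosphate-tagged enzymes to the lysosome, spans 12682406 to 12769706 on chromosome 17. It was at 94.3, 98.4 and 100.4 CPM in WT and at 146, 134 and 138 CPM in KO. All KO libraries were above all WT libraries, and the SD was small in both groups (97.7 ± 3.11 and 139 ± 6.36 CPM, n = 3). The log2 fold change was 0.51 (SE 0.10, adjusted p = 0.0204), below the 2-fold rule, and the call was lost when the trend over GC content was removed (0.43, adjusted p = 0.0502). *Airn*, the paternal noncoding RNA that runs antisense through *Igf2r*, differed by 0.08 (SE 0.18, adjusted p = 0.788). Whether counting used the strand is not given in the sources used here, so reads of *Igf2r* and *Airn*, like those of *Igf2* and *Igf2os*, of *Meg3* and *Gm26906* and of *Cdkn1c* and *Gm44732*, might not have been kept apart.

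**Figure D3:**
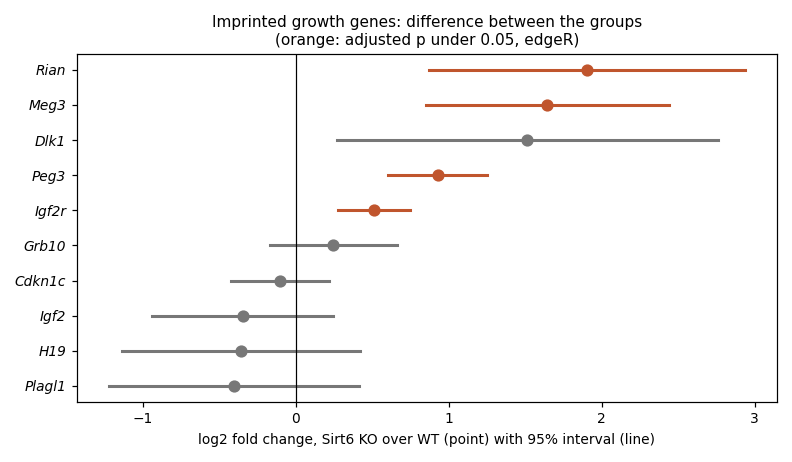
Log2 fold change of *Sirt6* KO over WT (point) with its 95% interval (line) for the 10 genes, from edgeR; orange marks an adjusted p under 0.05. *Rian*, *Meg3*, *Peg3* and *Igf2r* are called, *Dlk1* has a wide interval above 0, and the intervals of the other 5 genes include 0.

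*H19* and *Igf2* form a pair at the distal end of chromosome 7, 72.6 kb apart, and share enhancers while being expressed from opposite chromosomes. *H19*, the maternal noncoding RNA (142575530 to 142578146), was at 728, 952 and 629 CPM in WT and at 337, 869 and 594 CPM in KO. KO 1 was lowest and KO 2 was second to WT 2 alone, so the groups overlapped (log2 fold change -0.36, SE 0.33, 95% interval -1.14 to 0.42, adjusted p = 0.473). *Igf2*, the paternal growth factor (142650768 to 142666816), was at 9.54, 14.0 and 8.86 CPM in WT and at 6.08, 10.6 and 8.75 CPM in KO. It followed the order of *H19* closely, again with KO 1 lowest and the groups overlapping (-0.35, SE 0.25, interval -0.94 to 0.25, adjusted p = 0.361). Both intervals span 0, with more of their width on the side of a fall. The ratio of *H19* to *Igf2* in FPKM lay between 93.0 and 135 over all libraries, at 120 ± 5.76 (SD, n = 3) in WT and 114 ± 20.8 in KO.

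The 3 libraries with the highest *H19* and *Igf2*, WT 1, WT 2 and KO 2, were also those with the most RNA of slow fibers. The summed level of 8 slow fiber markers was 6902, 7876 and 4584 CPM in these, and 1336, 1565 and 1969 CPM in WT 3, KO 1 and KO 3. The summed level of 5 erythroid markers split the same libraries, at 297, 291 and 181 CPM against 46.6, 110 and 80.2 CPM. Summed endothelial markers did too (337, 383 and 234 against 188, 218 and 230 CPM). So did pericyte and smooth muscle markers (435, 507 and 235 against 222, 219 and 194 CPM). Schwann cell markers were at 53.8, 71.7 and 36.1 against 26.3, 24.9 and 34.1 CPM. Skeletal muscle fiber markers and regeneration and denervation markers split these libraries the other way, and the remaining marker lists did not split them. No slow fiber, erythroid or endothelial marker was called between the groups. The part of any of these in the *H19* and *Igf2* values was not tested. *Meg3* and *Rian* did not split these libraries in either direction. For both, KO 2 was the lowest KO library (26.5 and 15.8 CPM) and WT 3 was the lowest of all libraries (11.9 and 7.42 CPM). The part of slow fiber RNA in their values was not tested either.

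*H19* and *Meg3*, both maternal noncoding RNAs, differed in direction, with a call for *Meg3* alone. The FPKM ratio of *H19* to *Meg3* was 52.2, 80.1 and 64.9 in WT and 6.19, 41.3 and 17.2 in KO, with no overlap. The ratio of *Igf2r* to its ligand *Igf2* in FPKM was 4.16, 3.02 and 4.95 in WT and 10.3, 5.31 and 6.82 in KO, also without overlap. Both ratios contain a gene already called above and are given as descriptions.

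The remaining genes of the 10 are *Cdkn1c*, *Grb10* and *Plagl1*. *Cdkn1c*, the maternally expressed cyclin-dependent kinase inhibitor p57, lies 792 kb beyond *Igf2* on chromosome 7. It was at 21.1, 26.6 and 29.2 CPM in WT and at 23.6, 23.2 and 24.9 CPM in KO, and the groups overlapped (log2 fold change -0.10, SE 0.14, interval -0.42 to 0.22, adjusted p = 0.632). In the deposited FPKM, however, all KO libraries (10.3, 9.98 and 10.5) lay below all WT libraries (11.1, 13.1 and 12.5), so this gene's order depends on the scaling.

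*Grb10*, an adaptor that inhibits the insulin and IGF1 receptors and is expressed from the maternal chromosome in muscle, was at 45.6, 44.8 and 38.9 CPM in WT and at 58.8, 37.8 and 56.9 CPM in KO. KO 2 was the lowest of all 6 libraries and KO 1 and KO 3 were the highest (0.25, SE 0.18, interval -0.17 to 0.66, adjusted p = 0.353). *Plagl1*, the paternally expressed zinc finger factor that regulates other imprinted genes, was low, at 1.84, 1.70 and 0.995 CPM in WT and at 0.940, 0.924 and 1.56 CPM in KO. The groups overlapped, and the interval was wide (-0.40, SE 0.35, interval -1.22 to 0.41, adjusted p = 0.440). In an exact permutation test over the 6 libraries the genes with separate groups reached p = 0.1, the smallest that 3 against 3 allows, and the other 5 genes lay between 0.2 and 0.6.

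The 10 genes spanned several orders of magnitude in level per length. *H19* was far above the rest at a mean of 265 FPKM over the 6 libraries, in the 99.3rd percentile of all genes in the table. *Igf2r* (11.5 FPKM), *Cdkn1c* (11.3), *Meg3* (9.09), *Grb10* (8.10), *Rian* (5.39), *Peg3* (3.38) and *Igf2* (2.23) followed, and each overlapped the next in its range over libraries. *Plagl1* (0.224 FPKM) and *Dlk1* (0.0601 FPKM) stood below, and their ranges did not overlap each other's or that of *Igf2*. Between the groups *Meg3* moved from the fifth place in WT (4.85 ± 1.34 FPKM) to the second in KO (13.3 ± 6.34 FPKM), and *Rian* from the eighth (2.49 ± 0.74 FPKM) to the sixth (8.29 ± 5.26 FPKM). The order over all libraries was the same in TPM.

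**Figure D4:**
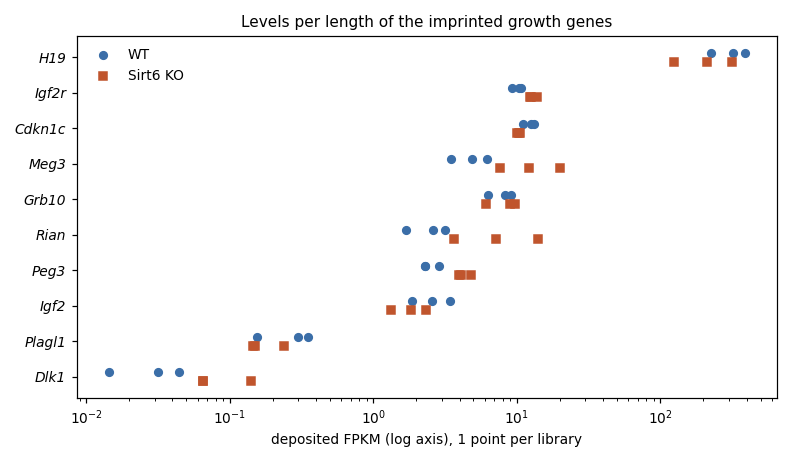
Deposited FPKM (log axis) of the 10 genes in each library, ordered by mean level, with WT as circles and *Sirt6* KO as squares. *H19* lies at 125 to 392 FPKM, 7 genes lie together between 1.34 and 20.1 FPKM, and *Plagl1* and *Dlk1* lie at or below 0.353 FPKM.

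Other imprinted genes were taken from a list of 49, of which 41 were tested. Of these, 5 were called higher and 3 lower, beside 7.85% and 8.39% of all genes tested, and their median log2 fold change was 0.15. The widest call with a small spread was *Peg13*, a paternal noncoding RNA inside an intron of *Trappc9*, at 29.9, 31.7 and 38.6 CPM in WT and 78.7, 83.5 and 104 CPM in KO (1.41, SE 0.15, adjusted p = 0.0110). *Tssc4*, a splicing-related gene of the cluster that contains *Cdkn1c*, was higher by 0.77 (SE 0.13, adjusted p = 0.0163). *H13*, a signal peptide peptidase, was higher by 0.50 (SE 0.12, adjusted p = 0.0310). The other higher calls were *Ddc*, a neighbour of *Grb10* (3.54, SE 0.89, adjusted p = 0.0382), and *Asb4* (1.07, SE 0.27, adjusted p = 0.0393). *Ddc* was near the limit of detection in WT, with 2, 13 and 13 counts, and had 260, 37 and 73 counts in KO. Without KO 1 its log2 fold change was 2.40 (edgeR, adjusted p = 0.119). The calls of *Tssc4*, *H13* and *Ddc* were lost with the GC trend removed (adjusted p = 0.0541, 0.142 and 0.0557).

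The 3 lower calls belonged to different clusters. *Kcnq1ot1*, the paternal noncoding RNA that silences *Cdkn1c* and its neighbours in cis, was at 8.68, 10.5 and 8.76 CPM in WT and 4.92, 5.84 and 4.98 CPM in KO. The log2 fold change was -0.83 (SE 0.15, adjusted p = 0.0184), a call that was lost with the GC trend removed (adjusted p = 0.0806) and on the FPKM scale with either pseudocount, while *Cdkn1c* itself showed no call. *Ube3a*, the ubiquitin ligase imprinted in neurons, was at 66.9, 73.5 and 70.9 CPM against 41.7, 41.9 and 44.8 CPM (-0.72, SE 0.10, adjusted p = 0.0131; 0.0844 with the GC trend removed). *Zdbf2*, a paternally expressed zinc finger gene, was at 3.39, 5.52 and 1.95 CPM against 0.684, 0.858 and 0.672 CPM (-2.29, SE 0.40, adjusted p = 0.0166). The KO libraries were below all WT libraries for each of the 3.

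**Figure D5:**
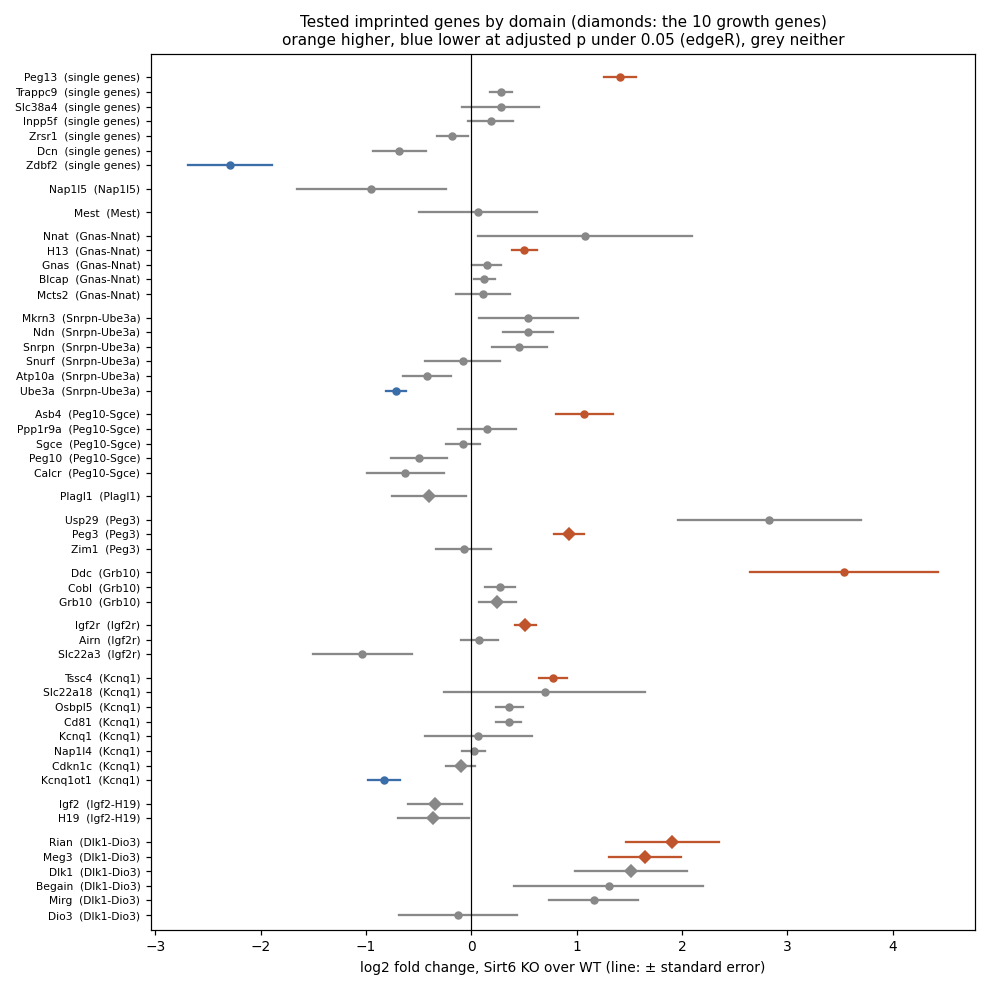
Log2 fold change of *Sirt6* KO over WT (horizontal axis, line ± SE) for all tested imprinted genes, grouped by cluster on the vertical axis; diamonds are the 10 growth genes and colour marks an adjusted p under 0.05. The *Dlk1*-*Dio3* cluster stands to the right with a median of 1.41, while *H19* and *Igf2* lie left of 0 without a call.

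Calls fell on genes listed for either parental allele. The allele is that of the list and was not measured in this muscle, and a listed gene such as *Ube3a* may be imprinted only in other tissues. Of 24 tested genes listed as maternally expressed 6 were higher and 1 lower, with a median log2 fold change of 0.26. Of 25 listed as paternally expressed 3 were higher and 2 lower, with a median of 0.11. Over all genes tested, 7.85% were higher and 8.39% lower. Within the 10 growth genes, 3 of 6 maternal genes (*Igf2r*, *Meg3* and *Rian*) and 1 of 4 paternal genes (*Peg3*) were called higher, beside 7.85% of all genes tested; the difference between the alleles was not tested.

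Of 20 partners of the IGF pathway, 18 were tested, with a median log2 fold change of -0.34. Of these, 1 was higher and 3 were lower, beside 7.85% and 8.39% of all genes tested. *Irs2*, an adaptor of the insulin and IGF1 receptors, was at 122, 117 and 37.7 CPM in WT and 6.32, 19.4 and 15.1 CPM in KO (-2.76, SE 0.55, adjusted p = 0.0214). *Shc1*, an adaptor that links these receptors to Ras, was higher by 0.55 (SE 0.11, adjusted p = 0.0216). The cell cycle inhibitors *Cdkn1a* (-1.22, SE 0.28, adjusted p = 0.0315) and *Cdkn1b* (-0.49, SE 0.10, adjusted p = 0.0246), relatives of *Cdkn1c*, were both lower. The calls of *Shc1* and *Cdkn1b* were lost with the GC trend removed (adjusted p = 0.0609 and 0.143).

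Of 10 factors that keep imprints, 9 were tested, 1 was higher and 2 were lower, beside 7.85% and 8.39% of all genes tested. *Dnmt1*, the maintenance DNA methyltransferase, was at 9.26, 9.40 and 9.13 CPM in WT and 14.5, 13.6 and 15.3 CPM in KO (0.64, SE 0.11, adjusted p = 0.0164). *Uhrf1*, which brings DNMT1 to hemimethylated DNA, had a log2 fold change of -1.79 (SE 0.48, adjusted p = 0.0460), with WT 3 at 0.803 CPM close to the KO libraries at 0.547 to 0.676 CPM. *Zfp57*, a zinc finger protein that binds methylated imprinting control regions, was at 1.72, 2.27 and 0.925 CPM in WT and 0.376, 0.445 and 0.418 CPM in KO (-1.98, SE 0.39, adjusted p = 0.0212). The *Uhrf1* call was lost in 5 of 8 other fits, with adjusted p up to 0.0741.

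The calls among the 10 genes depended on single libraries, as did the calls over all genes tested. All 4 held without WT 3 and without KO 2. Leaving out KO 1 left none of the 10 called, when over all genes tested 6 were called higher and 2 lower. Leaving out KO 3 also left none, with 8 higher and 5 lower over all genes. Leaving out WT 1 or WT 2 left *Peg3* alone, with 181 and 96 genes called higher over all genes. The log2 fold change over these fits stayed between 0.48 and 0.55 for *Igf2r* and between 0.83 and 1.02 for *Peg3*. Without KO 1, the log2 fold change was 1.24 for *Meg3* (adjusted p = 0.0689) and 1.33 for *Rian* (adjusted p = 0.0775). The directions of the 4 called genes and of *Dlk1* were the same in every fit that tested them.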

How the data were processed

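Poly(A) RNA of GAS muscle was sequenced on a HiSeq with paired 100 bp reads. Processing notes name HISAT2 2.1.0 and StringTie 2.1.3b on mm10, the reporting summary names STAR, and the labels and methods name different TruSeq kits. The source of the floxed *Sirt6* mice also differs between these documents. The counts that the authors deposited are whole StringTie counts per gene without normalization. The FPKM that the authors deposited are scaled to length and library size. TPM were deposited too, with a common total in each library. Replicates are separate animals.

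The counts were fitted by edgeR 4.0.16 under R 4.3.3 (filterByExpr, TMM, quasi-likelihood test on group), adjusted over 13801 genes, at 0.05. The biological coefficient of variation was 24.1%. Alternatives were DESeq2 1.42.0, its size factors, other filters on low values, limma 3.58.1 on quantile-normalized log2(FPKM + 1) or log2(FPKM + 0.1), a replicate block, removal of a lowess trend over GC content, and each library left out. Scripts were tested on simulated counts. The members and gene lists were chosen with earlier results of these data known. From the lists, genes with adjusted p under 0.05 were named (the 6 with the smallest p in longer lists); *Ddc*, *Asb4*, cluster neighbours and markers were named after their values were seen. Coordinates and promoters are from RefSeq on GRCm38.p6; *H19* and *Cdkn1c* had no window in the table. The exact permutation test was two-sided on log2 CPM.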

Additional observations from a re-analysis of the deposited data

How the results depend on the processing

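In the 9 fits other than leaving out a library, 3 to 4 of the 10 genes were called higher and none lower. The exceptions were *Igf2r* with the GC trend removed (adjusted p = 0.0502) and *Rian* in limma on log2(FPKM + 1) (0.0521). *Dlk1* was called in none of the fits that tested it, with adjusted p from 0.0767 to 0.288. Over all genes, 1158 were lower and 1084 higher; DESeq2 gave 1820 and 1746, and the fit without the GC trend gave 483 and 467. Leaving out each library in turn gave 2 to 2219 lower genes, 6 to 2363 higher genes, 0 to 4 of the 10 genes called higher, none called lower, and 2 to 3 past 2-fold. *Cdkn1c* turned from -0.10 to 0.0055 without WT replicate 3, with a range over the left-out libraries of -0.21 to 0.0055. Same-numbered WT and KO libraries did not all deviate together (r = -0.14, 0.34 and 0.22). These values cannot decide whether the numbers pair the animals, because deviations from a mean of 3 libraries constrain each other. With the replicate block, 1018 genes were lower, 904 higher and the same number of the 10 genes (4) were called, while *Ddc*, *Asb4* and *Uhrf1* lost their calls. The cause of these shifts was not tested, and the fits without a library also hold fewer samples. Depth limits *Dlk1* most, which had 4 to 11 counts per WT library.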
